A study of Mus musculus with 3 samples.

Results

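Goblet cells of wild-type (WT) intestinal organoids were the 87 barcodes of the WT library that carried Muc2 messenger RNA above a set level, out of 2567 WT barcodes that passed the cell filters and 11411 that were deposited. Muc2 encodes the gel-forming mucin of the intestinal mucus. Each barcode stands for the droplet around a cell, and each unique molecular identifier (UMI) for a captured RNA molecule. Members were selected on measured values: a member had at least 5 Muc2 UMIs that made up at least 0.05% of its UMIs, at least 1000 UMIs in all, at most 20% of UMIs from mitochondrial genes, and a barcode string that was absent from the other libraries. The series measured single-cell RNA from organoids of C57BL/6 mice, with 1 library for each of 3 genotypes. The WT library is the one described here, and LApc (Lgr5-CreERT2;Apc fl/fl, with the Cre line Lgr5-EGFP-IRES-CreERT2 in the study's methods) and LApcL (which carries Lef1 fl/fl in addition to the alleles of LApc) serve for comparison. Mice of 7 to 8 weeks received 2 doses of 2 mg tamoxifen, and organoids were started 21 days later for WT and LApcL and 29 days later for LApc, then dissociated on day 6 of passage 3. The Cre of both mutant genotypes is driven from Lgr5, a gene of intestinal stem cells, so deletion is expected in those cells and their progeny. As each genotype had 1 library, genotypes could not be tested against each other, and p-values are not given. Every interval below is an exact 95% interval that covers counting error within these libraries and nothing of the spread between mice or cultures. Intervals of levels and of ratios rest on UMIs summed over cells, so they also leave out the spread between cells.

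Goblet cells are secretory cells of the intestinal epithelium that store mucins in large apical granules and release them as mucus. They arise from crypt progenitors in which Notch signalling is low and the transcription factor Atoh1 is on, and Spdef then drives their maturation. The mucin polypeptide is folded in the endoplasmic reticulum (ER), where Agr2, a disulfide isomerase, is needed for Muc2 production, and it receives dense O-linked sugars in the Golgi before it is packed with partner proteins such as Fcgbp, Tff3, Zg16 and Clca1.

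The promoters of Muc2, Fcgbp and Agr2 are shown because these 3 genes span the mucin, a packed partner and the folding enzyme, and all stood above the other WT cells in the results below. Each run holds 250 bases before and 50 after the RefSeq start, written 5′ to 3′ on the gene's strand (RefSeq promoters, GRCm38.p6). The windows lie at chr7:141690090-141690389, plus strand, for Muc2, chr7:28070986-28071285, plus strand, for Fcgbp, and chr12:35992675-35992974, plus strand, for Agr2. Capitals mark a match to any of 4 short motifs searched on both strands.
Muc2: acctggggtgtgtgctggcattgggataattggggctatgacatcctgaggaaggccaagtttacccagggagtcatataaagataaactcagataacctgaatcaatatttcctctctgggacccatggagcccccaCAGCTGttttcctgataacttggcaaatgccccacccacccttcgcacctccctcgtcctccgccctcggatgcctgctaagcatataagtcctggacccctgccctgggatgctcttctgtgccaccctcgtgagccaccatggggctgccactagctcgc
Fcgbp: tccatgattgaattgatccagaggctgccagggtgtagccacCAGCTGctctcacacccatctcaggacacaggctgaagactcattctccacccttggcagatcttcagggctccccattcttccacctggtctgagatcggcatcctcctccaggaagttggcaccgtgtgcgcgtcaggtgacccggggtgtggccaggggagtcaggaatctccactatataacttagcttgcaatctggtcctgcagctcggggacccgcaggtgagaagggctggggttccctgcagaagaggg
Agr2: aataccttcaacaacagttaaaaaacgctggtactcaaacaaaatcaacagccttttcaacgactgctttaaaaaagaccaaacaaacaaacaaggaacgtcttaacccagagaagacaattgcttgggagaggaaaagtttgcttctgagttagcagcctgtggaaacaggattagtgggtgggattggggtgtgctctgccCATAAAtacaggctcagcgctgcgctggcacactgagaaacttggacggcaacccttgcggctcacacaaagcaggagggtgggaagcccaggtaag
Muc2 and Fcgbp each held 1 match to the E-box CAGCTG, the kind of site that basic helix-loop-helix factors bind, starting 112 bases before the start site in Muc2 and 208 bases before it in Fcgbp. That E-box is its own reverse complement and occurred in 16.3% of the 32851 promoters of the table. Agr2 held 1 match to the Cdx motif TTTATG, read on the opposite strand as CATAAA and starting 47 bases before the start site. The Cdx motif occurred in 11.9% of all promoters. No match to the E-box CAGATG (17.2% of all promoters) or to the Fox motif TGTTTAC (3.65%) was present in these 3 windows. Of 22 promoters of genes on the lists of secreted products and granule genes, 5 held CAGCTG, 6 held CAGATG, 3 held TTTATG and 1 held TGTTTAC. A match describes the letters of the window and nothing more.

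The 87 members made up 3.39% of the filtered WT barcodes (Clopper-Pearson interval 2.72 to 4.16%), a share that depends on the denominator and was 6.69% with at most 10% mitochondrial UMIs and 1.62% with shared barcodes kept. By the choice on Muc2 they held 5442 of the 5665 Muc2 UMIs in those barcodes, or 96.1%. The members had 1410 to 91741 UMIs each with a median of 7897, close to the median of 8224 in the 2480 other WT cells. Their median mitochondrial share was 5.15%, against 11.0% in the other WT cells. Muc2 had 5 to 623 UMIs in a member with a median of 25, which is 0.0528% to 1.61% of a member's UMIs. Just inside the limit a member had 9 Muc2 UMIs of 17059 (0.0528%), and just outside a barcode had 23 of 51288 (0.0448%). That outside barcode also carried 1383 Tff3 UMIs and 332 Fcgbp UMIs. In all, 6 other barcodes had 5 or more Muc2 UMIs at under 0.05%, 15 reached 0.05% with under 5 UMIs, and 12 members had 5 to 9 UMIs.

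**Figure D1:**
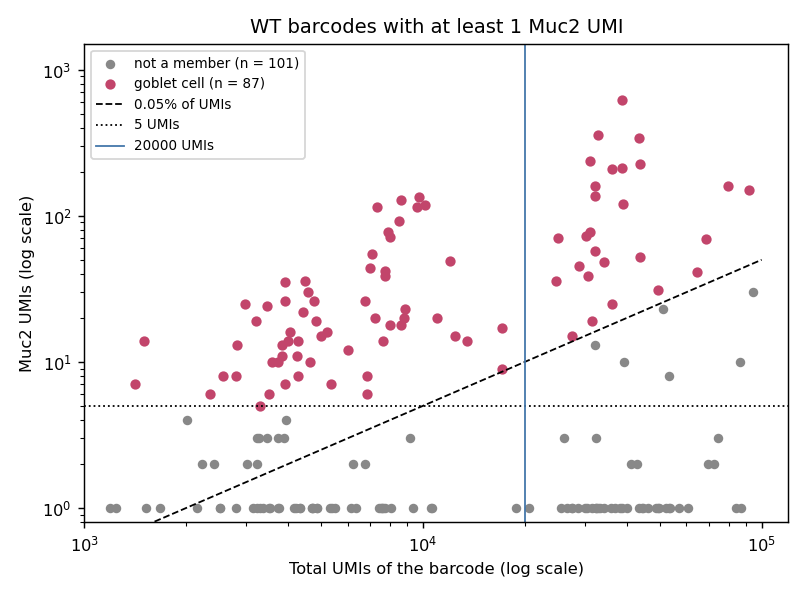
Muc2 UMIs (log scale) against total UMIs (log scale) for each of the WT barcodes with at least 1 Muc2 UMI, with members in red, other barcodes in grey, and lines at 5 UMIs, at 0.05% of UMIs and at 20000 total UMIs. The 87 members lie above both Muc2 limits and fall into a shallow and a deep set with a gap around 20000 UMIs, while 84 of the 101 grey barcodes have 1 or 2 Muc2 UMIs.

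Of the label's 4 markers, Muc2 chose the members, Fcgbp and Tff3 were present in all of them, and Clca1 was sparse. Muc2 (chromosome 7, 141690340 to 141754693, plus strand; GRCm38, GENCODE M21) had a level of 3685 CPM (UMIs per 1000000 UMIs of the summed barcodes), against 4.21 CPM in the other WT cells, which is a description. Fcgbp, an abundant IgG Fc-binding mucus protein (chromosome 7, 28071236 to 28120862, plus strand), was at 8973 CPM in goblet cells (8821 to 9127) and 51.6 CPM in the other WT cells (49.6 to 53.5). Tff3, the trefoil peptide of goblet cells (chromosome 17, 31125306 to 31129646, minus strand), was at 22516 CPM (22275 to 22759) and 122 CPM (119 to 125). All 87 members had at least 1 UMI of both genes, although the fewest was 1 UMI for each. Clca1, a secreted mucus-processing protease (chromosome 3, 145003817 to 145032776, minus strand), was at 60.3 CPM (48.4 to 74.2) and 0.283 CPM, with UMIs in 17 members. Of the 89 Clca1 UMIs, 33.7% came from 1 member, and 17 members had UMIs of all 4 markers.

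The shares of cells with a UMI were also taken at equal depth. With each barcode thinned to 1000 UMIs, Fcgbp was found in 96.6% of goblet cells (90.3 to 99.3%) and 5.52% of other WT cells, and Tff3 in 96.6% and 4.15%. The unthinned shares were 100% of goblet cells, with 31.0% of other WT cells for Fcgbp and 19.8% for Tff3 (median depth 7897 UMIs in goblet and 8224 in other WT cells). Cells high in Fabp1, a fatty acid binding protein of enterocytes, should lack both genes, and the thinned shares there were 3.64% and 2.15%, which is the background to read the goblet shares against (median depth 37989 UMIs in Fabp1-high cells). Clca1 was found in 6.90% of thinned goblet cells (2.57 to 14.4%) and in 0 of 2480 thinned other cells.

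Markers of tuft, immune, endothelial and stromal cells were at or near 0 in the goblet cells, while Paneth, enteroendocrine and enterocyte RNA is described further on. Of 10 tuft cell markers 6 had 0 UMIs, of 8 immune markers 7 had 0, of 5 endothelial markers 3 had 0 and of 5 stromal markers 4 had 0. The summed level of the endothelial list was 0.000813% of goblet cell UMIs, against 0.808% in the 2820 WT barcodes that passed the filters but whose strings also occurred in another library. None of those shared barcodes passed the Muc2 part of the rule, so leaving them out changed the denominator and not the members.

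Zg16, Spink4, Tff3, Fcgbp and Agr2 had the highest log2 ratios of (CPM + 1) of goblet to other WT cells. The rule chose the cells on Muc2, so this contrast is a description and carries no test. Of 5944 genes that reached 20 CPM in either group, Muc2 and mitochondrial genes left out, 503 (8.46%) were at least 2-fold higher in goblet cells and 399 (6.71%) at least 2-fold lower on the log2(CPM + 1) scale, and the median over all 5944 was 0.03. The balance of these counts depended on the cells and their weights: 607 were higher and 624 lower with the highest doublet scores removed, 616 and 610 without the Fabp1-high members, 587 and 781 by the mean of CPM per cell, and 551 and 966 among shallow cells. The largest log2 ratio was that of Zg16, a lectin-like protein of mucus granules that binds bacteria, at 8.79. Spink4, a serine protease inhibitor of goblet cells, followed with 8.04, then Tff3 with 7.52, Fcgbp with 7.42 and Agr2 with 7.17. The rest of the leading 15 were Defa24, Tpsg1, Klk1, Sytl2, Fer1l6, Ccl6, Ern2, Ramp1, Ano7 and Ang4, with log2 ratios from 5.99 to 7.09. Ang4 had UMIs in 14 members, with 58.9% of its UMIs in 1. Without that member it was at 47.7 CPM, under the 50 CPM this ranking asked for. By plain ratios of CPM, Ccl6 (1184-fold), Zg16 (528-fold) and Fer1l6 (492-fold) led these 15. Counts in the lists below are to be read against the 8.46% and 6.71% over all genes.

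Most secreted products were higher in goblet cells. Of 13 product genes that passed the level filter, 12 were at least 2-fold higher in goblet cells and 0 lower, with a median log2 ratio of 5.58 over the 15 genes with at least 10 UMIs. Spink4 was at 16380 CPM (16175 to 16588) against 61.2 CPM in the other WT cells. A member held 1 to 2138 Spink4 UMIs, with a median of 153, and no member was at 0. Guca2a, which encodes guanylin, a peptide that acts on epithelial fluid secretion, was at 1633 CPM against 108 CPM. Klk1, a kallikrein protease, was at 155 CPM against 0.528 CPM. Muc13, a mucin anchored in the cell membrane, was the product that stayed under 2-fold, at 572 CPM against 381 CPM. Retnlb, a goblet cell product linked to helminth infection, and Muc1 had 0 UMIs in goblet cells, which at this depth allows up to 2.03 CPM. Dmbt1, a scavenger receptor protein of the mucosa, was at 0.677 CPM from 1 UMI against 12.6 CPM.

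Zg16 divided the goblet cells. It had 0 UMIs in 46 members and 1 to 656 UMIs in the other 41, of which 31 had 10 or more. It reached 8.31% of the UMIs of 1 member. Zeros occurred among deep members too: 15 of the 27 members with 20000 or more UMIs had none, including the deepest, at 91741 UMIs. Deep members without Zg16 had 1928 CPM of Muc2 and 6064 CPM of Fcgbp, and deep members with Zg16 had 5430 and 8904 CPM. The same order held among the shallow members, at 3058 CPM of Muc2 without Zg16 and 6236 CPM with it. As Muc2 chose the members, its values there describe the set. Median depth differed between these shallow members too, at 4286 UMIs without and 7606 UMIs with Zg16, and its part was not tested.

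Granule genes also stood above the other WT cells. Of 11 granule and regulated secretion genes that passed the filter, 9 were at least 2-fold higher and 0 lower, with a median log2 ratio of 3.41. Sytl2, an effector of Rab27 that tethers granules, was at 228 CPM against 1.36 CPM, and 79 members had UMIs. Fer1l6, a protein of the ferlin family, was at 102 CPM against 0.208 CPM with UMIs in 55 members. Tpsg1, a membrane-anchored tryptase, was at 268 CPM, a log2 ratio of 7.07, with UMIs in 65 members. Rab27b, a small GTPase of secretory granules, was at 112 CPM against 3.79 CPM. Vamp8 and Stxbp2, which act in membrane fusion in many epithelial cells, were at 138 against 115 CPM and 56.9 against 51.9 CPM.

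Mucin folding and transport genes were higher by a smaller amount. In the ER list 8 of 23 tested genes were at least 2-fold higher and 0 lower, beside 8.46% and 6.71% of all genes. The median log2 ratio of the list was 0.91, and 24 of the 25 genes with enough UMIs had a ratio above 0. Agr2 (chromosome 12, 35992907 to 36004087, plus strand) was at 4202 CPM (4098 to 4307) against 28.1 CPM, with 0 to 546 UMIs in a member. Ern2, the epithelial form of the unfolded protein sensor IRE1, was at 158 CPM against 0.906 CPM. Its ubiquitous relative Ern1 was at 16.9 CPM, a log2 ratio to the other WT cells of 0.26 whose interval of -0.33 to 0.81 includes 0. The general chaperone Hspa5 was at 726 CPM against 385 CPM, and Pdia6, a disulfide isomerase, at 277 CPM against 90.2 CPM. Ddit3, a factor of the terminal stress response, was at 138 CPM against 129 CPM. In the list of signal peptide, translocon and ER to Golgi genes, 8 of 24 were at least 2-fold higher and 0 lower, with a median of 0.91. Tmed3 and Tmed9, cargo receptors of the early secretory pathway, were at 158 against 33.2 CPM and 185 against 44.2 CPM.

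Genes that add and sulfate O-linked sugars were higher as a group. Of 16 tested, 13 were at least 2-fold higher and 0 lower, with a median log2 ratio of 1.45. Gcnt3, which makes branched mucin cores, was at 180 CPM (159 to 203) against 6.04 CPM. Galnt12, which starts O-glycans, was at 109 CPM against 3.19 CPM, while Galnt7 was at 296 CPM against 97.1 CPM. St3gal4, a sialyltransferase, was at 43.3 CPM against 80.9 CPM. B3gnt6 and St6galnac1, mucin-type transferases known from the colon, had 0 UMIs in goblet cells, and both were also under 1 CPM in the other WT cells (0.208 and 0.528).

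Most secretory lineage factors that passed the filter were higher in goblet cells. Of 12 tested factors 7 were at least 2-fold higher and 0 lower, with a median log2 ratio of 1.76. Spdef (chromosome 17, 27714352 to 27728955, minus strand) was at 96.8 CPM (81.6 to 114) against 1.19 CPM, with UMIs in 48 members. Atoh1 (chromosome 6, 64729125 to 64731245, plus strand) was at 36.6 CPM (27.5 to 47.7) against 0.208 CPM, with UMIs in 17 members. Creb3l1 and Creb3l4, membrane-bound factors tied to secretory capacity, were at 99.5 against 3.10 CPM and 45.4 against 0.528 CPM. Klf4, a factor of differentiated epithelium, was at 521 CPM against 98.7 CPM, and Foxa3 at 81.3 CPM against 8.83 CPM. Sox4, which is found in progenitors, was at 75.2 CPM against 137 CPM. Of the Notch genes, 3 passed the filter. Hes1, the Notch target that represses Atoh1, was at 121 CPM (104 to 140) against 320 CPM (315 to 324), and the ligand Dll4, below the filter, was at 13.5 CPM against 1.81 CPM.

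Among ion transport genes, 2 of 8 tested were at least 2-fold higher and 5 lower, beside 8.46% and 6.71% of all genes. Slc12a8, a transporter of the cation chloride family, was at 192 CPM against 7.59 CPM, and the potassium channel gene Kcnk6 at 26.4 CPM against 0.396 CPM. The chloride channel gene Cftr was at 10.8 CPM against 53.5 CPM, and the chloride and bicarbonate exchanger gene Slc26a3 at 10.8 CPM against 44.7 CPM. Slc5a1, the glucose transporter of enterocytes, was at 203 CPM against 531 CPM. Best2, a bicarbonate channel of colonic goblet cells, had 0 UMIs.

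The lowest ratios of goblet to other WT cells were those of Nts, Ghrl, Tac1, Chgb, Reg1, Birc5, Ctrb1 and Cbr3. Of the 42 Chgb UMIs in goblet cells, 40 came from the member with Gip described further on. Without it Chgb was at 1.39 CPM, against 401 CPM in the other WT cells. Gip then had a log2 ratio of -5.89, so this ranking depends in part on that member. Nts, the neurotensin gene of enteroendocrine cells, had 0 UMIs against 143 CPM in the other WT cells, at least 70.6-fold lower with the goblet level set at 3 counts over the group. Ghrl had 1 UMI and Tac1 had 3, at 0.677 against 56.1 CPM (log2 ratio -5.09, -5.81 to -3.58) and 2.03 against 87.6 CPM (-4.87, -5.97 to -3.67). Of 10 tested cell division genes 9 were at least 2-fold lower and 0 higher, with Mki67 at 27.8 against 98.1 CPM and Birc5 at 6.09 against 54.0 CPM. Of 5 tested stem cell genes 2 were lower, beside 6.71% of all genes. Lgr5 itself was at 8.13 CPM with a log2 ratio of -0.72 and an interval from -1.53 to 0.03. Ctrb1, a chymotrypsinogen gene, was at 99.5 against 761 CPM, and Cbr3, a carbonyl reductase gene, at 10.2 against 82.9 CPM.

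In the list of Reg family and antimicrobial genes, 3 of 6 tested were at least 2-fold higher in goblet cells and 1 lower. The shares over all genes were 8.46% and 6.71%. Reg4, a secreted lectin-like protein, was at 342 CPM against 41.7 CPM with UMIs in 36 members, and Lypd8, an antibacterial surface protein, at 549 CPM against 192 CPM. Reg3b, an antibacterial lectin, was at 49.4 CPM against 16.3 CPM, but 69 of its 73 UMIs came from 1 member, without which it was at 2.80 CPM, below the level in the other WT cells, so the count of 3 rests in part on that member. Reg1, another Reg family gene, was at 9.48 against 85.6 CPM.

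The other WT cells hold enterocytes and undifferentiated cells, so goblet cells were also set against the 604 Fabp1-high and the 1876 Fabp1-low WT cells apart (Fabp1 at 5 or more UMIs and 0.3% or more of UMIs, or not). Against Fabp1-high cells 847 of 5818 genes (14.6%) were at least 2-fold higher in goblet cells and 512 (8.80%) lower, around a median of 0.20. Against Fabp1-low cells 443 of 6054 (7.32%) were higher and 393 (6.49%) lower, around a median of -0.05. The secretory lists stood above both groups. Secreted products had medians of 6.50 against Fabp1-high and 5.63 against Fabp1-low cells, granule genes 4.11 and 3.09, and O-glycosylation genes 1.94 and 1.49.

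The lists of other cell states depended on the comparison cells. Enterocyte markers had a median of -1.92 against Fabp1-high cells and -0.35 against Fabp1-low cells, Fabp1 itself left out because it chose those groups. Cell division genes had medians of -0.33 and -2.15, and stem cell genes 0.86 and -0.82. Enteroendocrine genes stood at 3.55 and -2.75, but 1 member with Gip, described further on, held all except 95 of their 3586 goblet UMIs. Without it these medians were -0.06 and -5.62, and that against all other WT cells went from -2.15 to -4.92. Agr2 was at 4.91 CPM in Fabp1-high and 43.3 CPM in Fabp1-low cells, and Hes1 at 272 and 351 CPM, both on the same side of the goblet level.

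**Figure D2:**
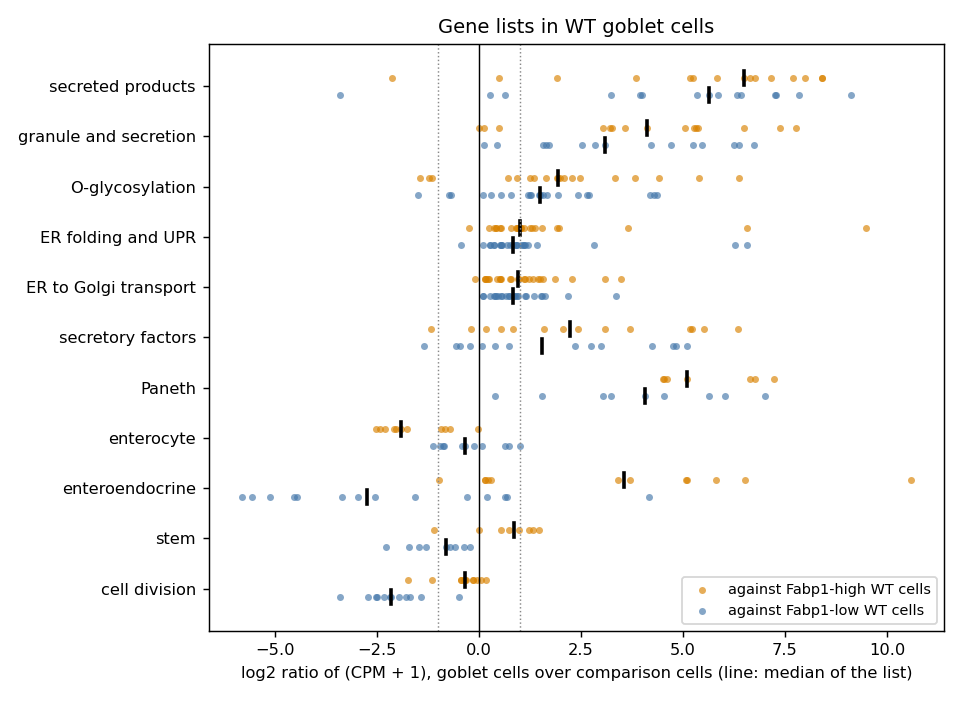
Log2 ratio of (CPM + 1), goblet cells over Fabp1-high WT cells (orange) or over Fabp1-low WT cells (blue), with 1 point per gene of each list, a black line at the list's median and dotted lines at 2-fold. Secreted products, granule, O-glycosylation and Paneth lists lie to the right in both comparisons, while enterocyte genes lie to the left mainly against Fabp1-high cells and cell division genes mainly against Fabp1-low cells.

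Some goblet cells also carried Paneth cell RNA. Paneth cells are the antimicrobial secretory cells of the crypt base. All 7 tested Paneth list genes were at least 2-fold higher in goblet cells than in other WT cells, beside 8.46% of all genes. The median log2 ratio was 4.40, and the list made up 0.601% of goblet UMIs against 0.0297% in the other WT cells. The defining Paneth genes were uneven. Defa24, a cryptdin, was at 1828 CPM (1759 to 1898), Lyz1, which encodes lysozyme, at 584 CPM (546 to 625), and Itln1, an intelectin that goblet cells also make, at 1490 CPM. Mmp7, the protease that activates cryptdins, was at 1.35 CPM, Defa22 at 1.35 CPM and Defa21 at 0.

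Defa24 and Lyz1 were concentrated in few members, although 86 of 87 members had a UMI of the list. Nupr1, a stress-induced chromatin protein on that list, had 2664 of its 8869 UMIs and was found in 85 members. Defa24 had 0 UMIs in 51 members and 10 or more in 15, and 5 members held 79.0% of its UMIs. Lyz1 had 0 UMIs in 48 members and 10 or more in 15, with 43.9% of its UMIs in 1 member. Without the member that had the highest count of the gene, Defa24 was at 1411 CPM and Lyz1 at 349 CPM. Both values lie below the intervals given above, which leave out the spread between cells. For Defa30 and Ang4, 81.5% and 58.9% of the UMIs came from 1 member, without which the levels were 28.7 and 47.7 CPM. The 6 members with 10 or more UMIs of both had 9970 CPM of Defa24 and 2504 CPM of Lyz1 beside 26087 CPM of Tff3 and 10022 CPM of Fcgbp. After thinning, Defa24 was found in 23.0% of goblet cells (14.6 to 33.3%) and 1.69% of other WT cells, and Lyz1 in 18.4% (10.9 to 28.1%) and 0.806%. Cryptdin genes are near-identical copies, so UMIs may have been split among them in counting.

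Enteroendocrine and enterocyte RNA was concentrated in named barcodes. Gip, an incretin hormone gene, was at 1758 CPM in goblet cells against 58.4 CPM in the other WT cells, yet all of its 2596 UMIs came from 1 member of 34226 UMIs. That member also held 537 Cck, 85 Gcg and 40 Chgb UMIs beside 1185 Tff3, 254 Fcgbp and 48 Muc2 UMIs, and it had 0 Agr2 UMIs. Without it Gip was at 0 CPM, and the log2 ratio turned from 4.89 to -5.89. Fabp1 was at 3396 CPM in goblet cells against 8480 CPM, and 5 members held 93.9% of its goblet UMIs. The 7 members that also passed the Fabp1-high rule had 22618 CPM of Fabp1 and 733 CPM of Muc2. Whether such barcodes hold RNA of more than 1 cell was not tested cell by cell. Among the filtered WT barcodes, 145 of 2567 had the highest Scrublet doublet scores, and the 13 goblet cells among these included the Gip member and 4 of the 7 Fabp1-high members.

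**Figure D3:**
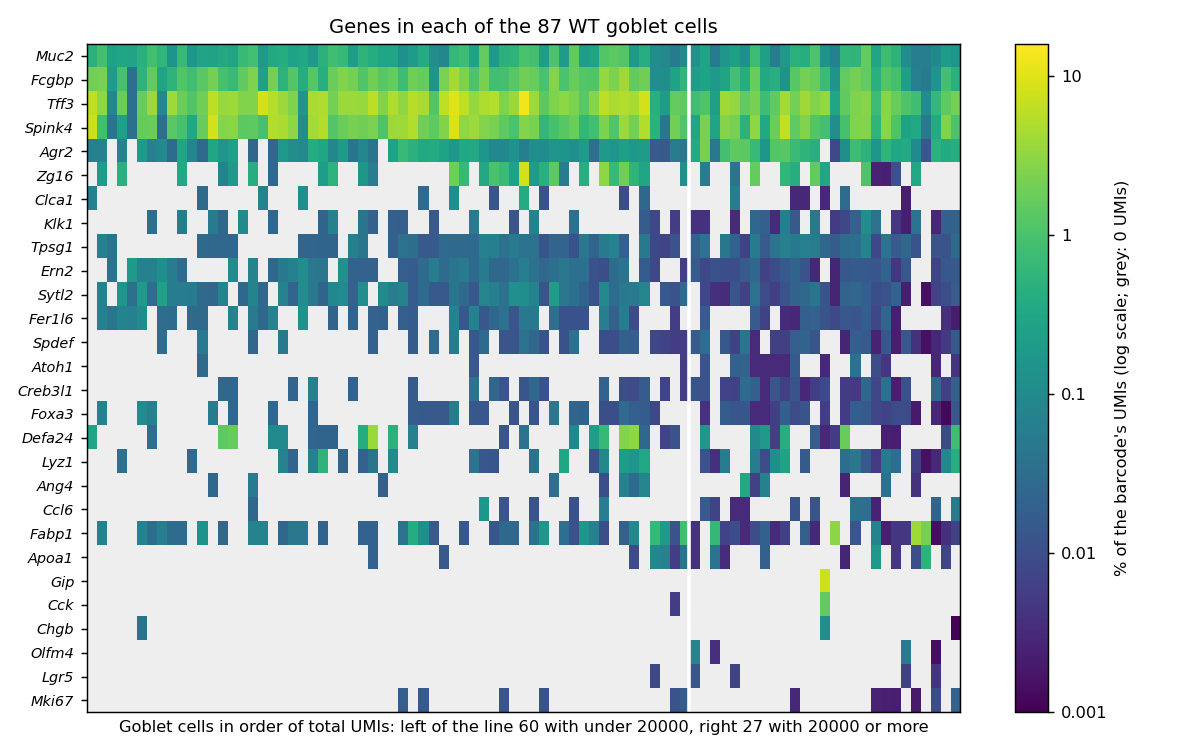
Share of UMIs (% of the barcode's UMIs, colour on a log scale, grey for 0 UMIs) of 28 genes in each of the 87 goblet cells, ordered from left to right by total UMIs, with a white line between the 60 members under and the 27 at or over 20000 UMIs. Muc2, Fcgbp, Tff3 and Spink4 are coloured in every column, Zg16, Defa24 and Lyz1 alternate between grey and coloured columns at all depths, and Gip is coloured in 1 column.

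The goblet cells fell into a shallow and a deep set. No member lay between 17067 and 24636 UMIs, and 60 members fell below this gap and 27 above it, with median depths of 5094.5 and 34226 UMIs. The deep members held 1097935 of the 1476820 goblet UMIs, so CPM of the summed cells describe mainly the deep members. The limit of 20000 UMIs was set after the depths were seen. Between shallow and deep members, 938 of 6365 genes (14.7%) were at least 2-fold higher and 1014 (15.9%) at least 2-fold lower in the shallow set. In the other WT cells split at the same depth these shares were 14.6% and 5.04% of 6230 genes.

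Most ER to Golgi transport genes were lower in the shallow goblet cells, and Tff3, Fcgbp and Zg16 were higher. Of 13 tested products 3 were at least 2-fold higher and 2 lower, with a median log2 ratio of 0.40 beside 0.71 in the other WT cells, and of 24 ER folding genes 2 were higher and 6 lower, with a median of -0.37. Tff3 was at 36919 CPM in shallow and 17546 CPM in deep members, Fcgbp at 14165 and 7182 CPM, and Zg16 at 5292 and 1874 CPM. The log2 ratios were 1.07 for Tff3 and 0.98 for Fcgbp, beside 1.21 and 1.34 in the other WT cells. The minimum of 5 Muc2 UMIs asks for a higher Muc2 share of a shallow barcode than of a deep one, Muc2 was at 4782 CPM in shallow and 3306 CPM in deep members, and the part of this choice in the product levels was not tested. Of 12 tested granule genes 2 were at least 2-fold higher and 0 lower, among them Sytl2 at 523 and 126 CPM. The counts of higher products and granule genes and of lower products are near the 14.7% and 15.9% over all genes. Ern2, 1 of the 2 higher ER genes, was at 301 and 109 CPM. In the other direction, Agr2 was at 1507 and 5131 CPM, a log2 ratio of -1.77 (-1.89 to -1.64), beside -0.22 in the other WT cells. Atoh1 was at 7.92 and 46.5 CPM, with UMIs in 3 of 60 shallow and 14 of 27 deep members. Of 24 tested ER to Golgi transport genes 16 were at least 2-fold lower and 0 higher in the shallow members, with a median of -1.15, while the median in the other WT cells was -0.44. Of 11 tested enterocyte genes 9 were at least 2-fold lower in the shallow members (median -1.71), beside 6 of 11 in the other WT cells (median -0.85). All 8 tested enteroendocrine genes were at least 2-fold lower (median -4.16), with 3561 UMIs of that list in deep and 25 in shallow members. Without the Gip member, a deep one, 95 of the 3586 goblet UMIs of that list remained over both sets. The Paneth list had a median of 0.73, with 1 of 7 tested genes at least 2-fold higher and 1 lower. The deep set held the Gip member, 4 of the 7 Fabp1-high members and 7 of the 13 members with the highest doublet scores. Beyond the enteroendocrine counts above, their part in these differences was not tested.

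Transcripts used as signs of RNA quality also differed with depth. The median mitochondrial share was 4.65% in shallow and 6.30% in deep members, and 12.1% and 10.6% in shallow and deep other cells. Gm26917, a non-coding transcript, was at 31484 CPM in shallow and 2963 CPM in deep members, and at 70602 and 2406 CPM in shallow and deep other cells. Lars2, a mitochondrial leucyl-tRNA synthetase, was at 3286 and 319 CPM in members and 5536 and 235 CPM in other cells. The nuclear RNA Malat1 was at 16477 and 4770 CPM in members and 10483 and 5596 CPM in other cells. Among the shallow members, 4 had under 1% mitochondrial UMIs, and these had 36530 CPM of Malat1 and 1028 CPM of Tff3. The part of RNA quality in the depth differences was not tested.

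**Figure D4:**
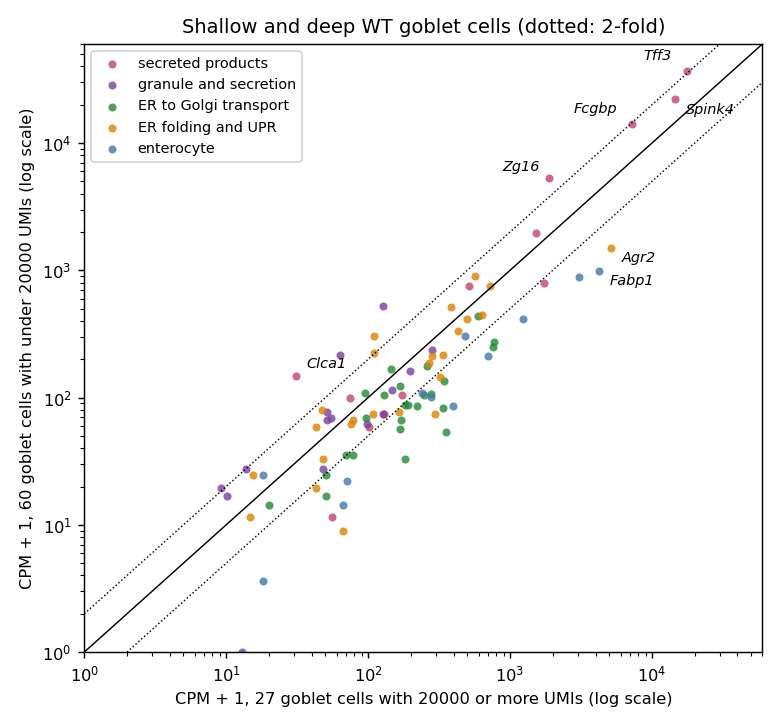
Level of each listed gene (CPM + 1, log scales) in the 60 shallow goblet cells against the 27 deep goblet cells, coloured by list, with a solid line at equality and dotted lines at 2-fold. Tff3, Fcgbp, Zg16 and Clca1 lie above the solid line, and Agr2, Fabp1 and most green points of ER to Golgi transport lie below it.

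The shares of products were also compared from member to member. Over the 87 members, Spearman's rho between shares of UMIs was 0.77 for Tff3 and Spink4, 0.69 for Muc2 and Fcgbp, and 0.66 for Fcgbp and Tff3. Muc2 and Tff3 were less closely tied at 0.36, and Zg16 and Spink4 at 0.20, with 0.43 in the deep and 0.08 in the shallow set. For Tff3 and Spink4 the value was 0.79 in the 27 deep and 0.76 in the 60 shallow members. Agr2 and Tff3 had 0.13 over all members, 0.54 in the deep set and 0.34 in the shallow set. For Muc2 and Fcgbp it was 0.82 in the deep and 0.58 in the shallow set, and for Muc2 and Tff3 0.52 and 0.24. These values are descriptions: Muc2 chose the members and its minimum of 5 UMIs asks for a higher share of shallow ones, all points come from 1 library, shares of a total constrain each other, and depth is common to both genes of a barcode.

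The same rule applied to the mutant libraries found few barcodes, and most of those were rich in Paneth cell RNA. In LApc 8 of 3272 filtered barcodes passed (0.244%, 0.106 to 0.481%), and in LApcL 27 of 3807 (0.709%, 0.468 to 1.03%), beside 3.39% in WT. With at most 10% mitochondrial UMIs these shares were 0.351%, 0.998% and 6.69%, and with shared barcodes kept 0.144%, 0.435% and 1.62%. A lower share of goblet cells and less Muc2 RNA per cell cannot be told apart by a rule on Muc2, and the libraries also differ in depth, with medians of 24632.5 UMIs in the other cells of LApc, 10152.5 in LApcL and 8224 in WT. Fcgbp was at 8973 CPM in the WT members, 218 CPM (160 to 290) in the LApc barcodes and 365 CPM (317 to 417) in the LApcL barcodes. Zg16 was at 2750 CPM, 0 (up to 13.9) and 0 (up to 5.21) CPM, the limits being those of 3 counts. Tff3 was at 22516, 14875 and 16337 CPM, and Spink4 at 16380, 13854 and 12332 CPM, so these products were within 2-fold across the libraries while Fcgbp and Zg16 were not. Agr2 was at 4202, 1861 and 1795 CPM.

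Paneth genes ran the other way. Lyz1 was at 584 CPM in the WT members, 66998 CPM in the LApc barcodes and 9876 CPM in the LApcL barcodes, and Defa24 at 1828, 62121 and 85334 CPM. Mmp7 was at 1.35 CPM in WT and 13738 and 12239 CPM in the other sets. The 9 Paneth genes Lyz1, Defa24, Defa30, Defa22, Defa21, Defa17, Mmp7, Habp2 and Nupr1 together took a median of 0.280% of UMIs in a WT member (0 to 5.22%), 16.5% in LApc (0 to 31.7%) and 17.6% in LApcL (0.612 to 46.5%). The 5 goblet genes Fcgbp, Clca1, Tff3, Zg16 and Spink4 took 6.32%, 3.31% and 3.05%. Paneth genes outweighed goblet genes in 0 of 87 WT members, 7 of 8 LApc barcodes and 21 of 27 LApcL barcodes, and 1 LApc barcode had 0 UMIs of both sets. The barcodes of the mutant libraries are therefore called by the rule and not goblet cells. With 1 library each, genotype, days after tamoxifen in LApc, and library cannot be told apart.

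**Figure D5:**
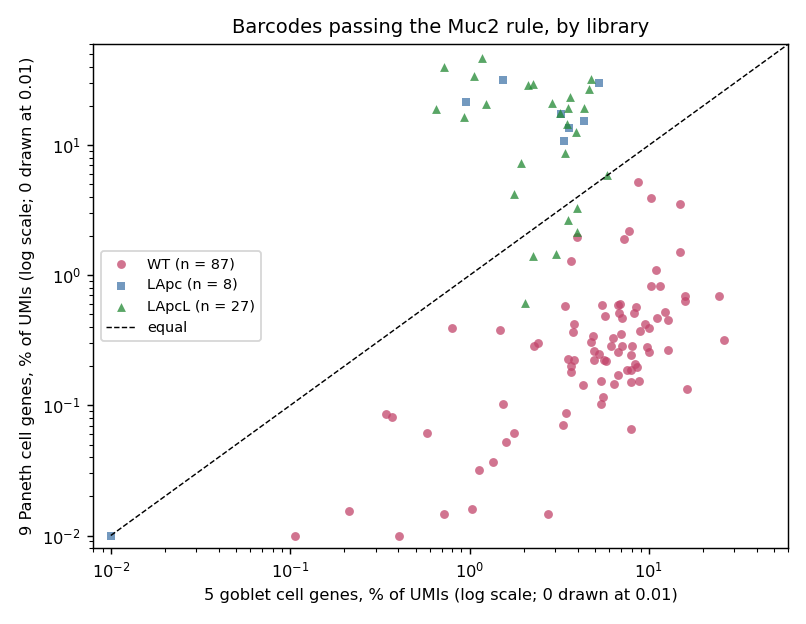
Share of UMIs from 9 Paneth cell genes against the share from 5 goblet cell genes (%, log scales, 0 drawn at 0.01) for each barcode that passed the Muc2 rule in WT (red circles), LApc (blue squares) and LApcL (green triangles), with a dashed line at equality. All 87 WT members lie below the line, and 7 of 8 LApc and 21 of 27 LApcL barcodes lie above it.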

How the data were processed

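Single-cell RNA of 3 organoid libraries (10x Chromium 3′) was analysed from the deposited count matrices, in which the authors give UMI counts per gene and barcode for 32285 features. The submitters' processing notes name Cell Ranger 2.1.1 and the mouse build mm10 (GRCm38), whereas the header of the deposited matrices names version 6.0.1, so the version is uncertain. Library totals were 87185429 (WT), 118867221 (LApc) and 112057783 (LApcL) UMIs. The labels name 1 library per genotype.

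Barcodes found in more than 1 library were left out, and 3195 strings occurred in all 3. The cell rule is given with the results. UMIs were summed over cells and scaled to counts per 1000000 (CPM). Log2 ratios used a pseudocount of 1 CPM, and genes were compared from 20 CPM in either group. List medians used genes with at least 10 UMIs. Intervals were exact Poisson, conditional binomial or Clopper-Pearson, at 95%, and 3 counts stood for a count of 0. Shares of cells were also taken after thinning to 1000 UMIs. Doublets were not removed: the automatic threshold of Scrublet marked 0, 1 and 2 barcodes in WT, LApc and LApcL and so did not work, and removal of the top scores at 0.8% per 1000 barcodes was an alternative.

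Of 252 listed genes 2 were not found (Muc17 and Pla2g2a). The members and lists were chosen with earlier results of these data known. Named genes were the label markers, the 15 highest and 8 lowest log2 ratios against other WT cells at 50 CPM or more, in each list the 4 highest levels and the 2 highest and 2 lowest ratios, and the 5 highest ratios against Fabp1-high and Fabp1-low cells. Gm26917 and Lars2 were among the 5 highest ratios of shallow over deep cells, members or others, a split set after depths were seen. Creb3l4, Ern1, Foxa3, Guca2a, Lgr5, Malat1, Pdia6, Rab27b, Slc26a3, Tmed9, Defa17, Defa22 and the genes given at 0 UMIs were chosen after their values were seen. The code was tested on simulated counts for goblet against other WT cells (5944 genes, 200 changed): intervals covered 95.9% of the true ratios and all 200 changed genes had the right direction. The simulated sums were Poisson counts without spread between cells, and no pseudocount was used. The test therefore checked the code and could not check the intervals for genes whose UMIs lie in few cells. Computation used python 3.11.15, numpy 2.4.6, scipy 1.17.1, pandas 2.3.3, scanpy 1.11.5 and matplotlib 3.10.9. Another 13 settings were tried, and 3 more were chosen after seeing the data.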

Additional observations from a re-analysis of the deposited data

Results flagged for a closer look

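The limit on mitochondrial UMIs left out WT barcodes that carry Muc2 above the set level. Of 4508 unshared WT barcodes with over 20% mitochondrial UMIs, 12 passed the Muc2 part of the rule (0.266%, 0.138 to 0.465%), and they entered no comparison. They held 150136 UMIs, with mitochondrial shares of 20.5 to 30.8%. Fcgbp was at 6121 CPM, Tff3 at 14767 CPM, Spink4 at 13608 CPM, Agr2 at 3384 CPM and Zg16 at 420 CPM, and Clca1 had 0 UMIs. With mitochondrial genes left out of the totals, Fcgbp was at 8033 CPM in the 12 barcodes and 9660 CPM in the 87 goblet cells, Tff3 at 19379 and 24239 CPM, and Spink4 at 17858 and 17634 CPM. In LApc and LApcL, 0 of 3509 and 0 of 3735 barcodes over the limit passed.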

How the results depend on the processing

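The goblet share of 3.39% became 2.69% with at least 10 Muc2 UMIs and 0.1%, 6.69% with at most 10% mitochondrial UMIs, and 1.62% with shared barcodes kept, where only the denominator grew. The LApcL share of 0.709% became 1.21% with at least 3 Muc2 UMIs and 0.03%, 0.263% with at least 10 and 0.1%, 1.24% at 10000 or more UMIs and 0.435% with shared barcodes kept. The 503 higher genes became 128 at a minimum of 100 CPM and 1161 with no filter. The 399 lower genes became 133 at 100 CPM and 1254 with no filter, where fewer or more genes were compared, 247 with a pseudocount of 10 CPM, 624 with the highest Scrublet scores removed, 610 without the Fabp1-high members, 781 by the mean of CPM per cell, and 966 among shallow cells (an alternative chosen after seeing the data). The median of secreted products, 5.58, became 6.18 with Scrublet scores removed, 4.45 by the mean per cell, 3.52 with a pseudocount of 10 CPM, and 5.94 against cells with 0 Muc2 UMIs. Of 75 named genes at least 2-fold different, 5 turned sign in 1 or more alternatives and 23 came below 2-fold. Reg3b (1.55, with 69 of its 73 UMIs from 1 member) turned to -2.79 with at least 10 Muc2 UMIs, -2.72 at 10% mitochondrial UMIs, -2.74 without the Fabp1-high members and -0.20 among shallow cells. Fosb (1.24) turned to -0.61 with shared barcodes kept. Gip (4.89) turned to -0.87 with Scrublet scores removed, -5.89 without the 1 member that held it and -2.70 among shallow cells, and Neurod1 (1.37) to -2.65, -3.23 and -3.05 in the same order. Lfng (1.31) turned to -0.12 by the mean per cell and -2.01 among shallow cells. The cause was not tested except where stated. No paired analysis was possible because each genotype had 1 library and no result came from a test, and no replicate could be left out. Depth limits low genes: a count of 0 in goblet cells allows up to 2.03 CPM.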
